A study of Mus musculus with 4 samples.

Results

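Fatty acid oxidation in the liver was followed through 40 genes of mitochondrial and peroxisomal oxidation, omega oxidation, acyl-CoA hydrolysis and ketone body handling in mouse hepatocyte preparations with and without a Pnpt1 deletion. The genes were chosen by name, with earlier results of these data known. Each was found through probes whose RefSeq accession, with its version dropped, maps to the gene's symbol. All 40 had a probe that passed the background filter, out of 11505 named genes measured. For 39 of them the probe was well above background on all 4 arrays in both genotypes, the exception being Hao2. Pnpt1 encodes PNPase, a 3′-to-5′ exoribonuclease found mainly in mitochondria.

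RNA from 4 C57BL/6J mice was hybridised to 4 two-colour Agilent arrays. The HepKO genotype was floxed Pnpt1 on both chromosomes with 1 copy of Albumin-Cre, whose promoter drives the recombinase in hepatocytes, and the WT genotype was the same floxed Pnpt1 with no Cre. One HepKO mouse and one WT mouse of the same sex, age and litter formed a pair, aged 12.29 weeks for the pair labelled male and 4.29 weeks for the pair labelled female; a second label field gives 12.9 weeks for the male HepKO mouse. Each pair was run on 2 arrays with the dyes exchanged, so that n = 2 pairs throughout, and a pair's arrays shared 1 slide. Livers were perfused with collagenase and the RNA came from washed cell pellets, with no sorting step in the labels.

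Beta-oxidation shortens an activated fatty acid by repeated rounds of dehydrogenation, hydration, a further dehydrogenation and thiolytic cleavage. Mitochondria take long-chain acids through the carnitine shuttle and hand the electrons to the respiratory chain, whereas peroxisomes shorten very long and dicarboxylic acids and pass the electrons to oxygen as hydrogen peroxide. In liver, much of the acetyl-CoA made in fasting becomes ketone bodies, and the nuclear receptor PPARα, a partner of RXR, activates many genes of all of these routes.

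Some facts of the libraries touch every value below. Xist, the RNA that coats the inactive X chromosome in females, was detected (well above background) on both arrays of the male-labelled pair and on neither of the other, in both genotypes. The Y-linked genes Ddx3y, Eif2s3y and also Kdm5d showed the reverse, so that these genes run against the labelled sex. Y-linked Zfy2 did not part the pairs: it was well above background in HepKO on all 4 arrays and in WT on 1 array of each pair. Uty and Zfy1 had no kept probe. The labels' names are kept here for the pairs, and the ratio of HepKO over WT is taken within a pair. Of 11 hepatocyte markers measured, 1 rose (Hpx, 1.67 on the log2 scale) and none fell, with a median of 0.14. Of 14 measured macrophage markers 11 rose, including Clec4f and Adgre1, and none fell. Their summed normalized intensity lay between 9808 and 23733 in WT and between 76845 and 84256 in HepKO. Markers rose in 10 of 14 cases for endothelial cells, 8 of 14 for lymphocytes, 6 of 11 for stellate cells, 3 of 6 for neutrophils and 1 of 6 for cholangiocytes. Over all genes measured, 12% rose and 3.71% fell. Of 3 erythroid markers measured, Hba-a1 rose by 3.27, Alas2 fell by 0.90 and Slc4a1 had 0.39. In WT, 5 lymphocyte, 2 macrophage, 2 neutrophil and 2 cholangiocyte markers and 1 erythroid marker, Slc4a1, were above background on no array. In RNA from a mixed pellet, fewer cells of a type and less RNA per cell cannot be told apart, and the part of these markers in the values below was not tested. The brighter Pnpt1 probe had a log2 ratio of -0.10 ± 0.20 (adjusted p = 0.747). The dimmer one, A_52_P229271, was at -0.67, -0.32, -0.50 and -0.60 on the 4 arrays, with a mean of -0.52 ± 0.13 (limma adjusted p over all probes 0.0802). Where either lies relative to the deleted part of the gene is not known here.

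Most fatty acid oxidation genes had lower values in HepKO than in WT hepatocyte preparations. The 40 genes were chosen with earlier results of these data known. Their shares beside those of all genes are thus a description and no independent test. The median log2 ratio of the 40 genes was -0.42, beside 0.08 for all genes measured. Of the 40 means 35 were below 0, beside 4877 of the 11505 over all genes. On all 4 arrays 26 genes (65%) were below 0, beside 25% of all genes, and 2 genes (5%), Ucp2 and Acot2, were above 0, beside 39.4%. With limma and Benjamini-Hochberg adjustment over all named genes, 7 of the 40 (17.5%) fell, beside 3.71% of all genes, and 1 (2.5%) rose, beside 12%. For both directions together this is 8 of 40 (20%) beside 15.7%. The 7 genes that fell were Acaa1b, Abcd3 and Eci2 of the peroxisome, Cyp4a10 and Cyp4a14 of omega oxidation, the thioesterase Acot1 and the mitochondrial dehydrogenase gene Hadh, and the 1 that rose was Ucp2. A further 7 genes had adjusted p-values from 0.05 to 0.1, and each of these was below 0 on all 4 arrays. The counts depend on the processing. Without the array of the male-labelled pair with HepKO in Cy3, 4 of the 40 fell and Hadh, Abcd3 and Eci2 had adjusted p-values of 0.0762, 0.0614 and 0.0618. Without the array of the female-labelled pair with HepKO in Cy5, 5 fell. Hadh and Abcd3 then had limma adjusted p-values of 0.114 and 0.05002, above 0.05, and lost their calls. None of the 40 passed either without the filter on dim probes or with the background model estimated on all spots. In those settings limma gave 4638 and 3018 genes of the whole array at an unadjusted p under 0.05, and the smallest adjusted p was 0.0691 and 0.0713.

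**Figure D1:**
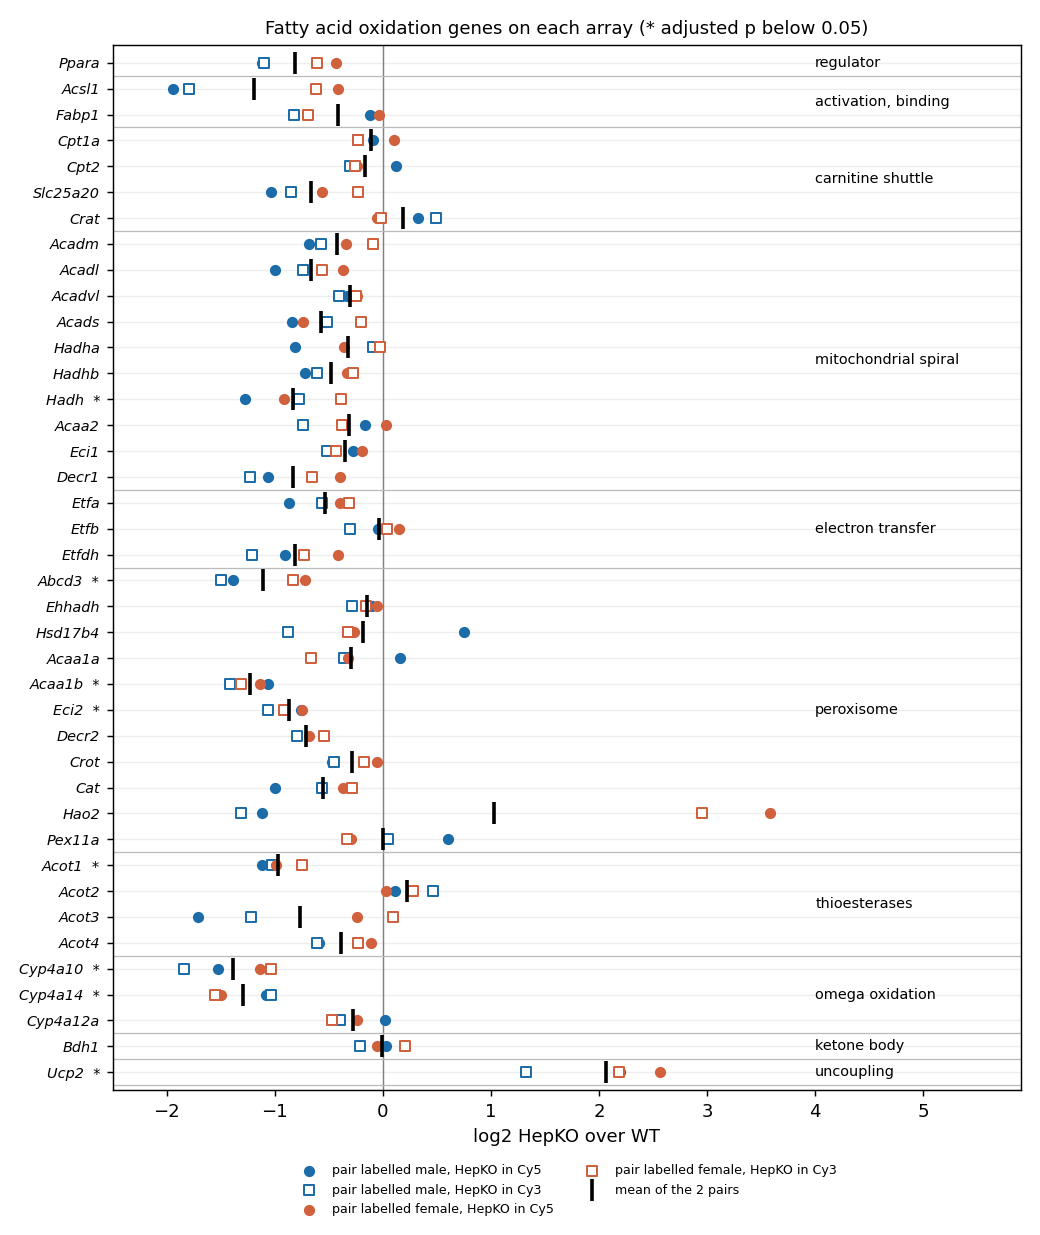
Log2 ratio of HepKO over WT (horizontal axis) for each of the 40 genes (rows, grouped by role) on each of the 4 arrays, filled where HepKO was in Cy5 and open where it was in Cy3, with a bar at the mean of the 2 pairs and an asterisk at an adjusted p below 0.05. Most points lie left of 0, Ucp2 lies right of 0 on all 4 arrays, and the pairs part for Hao2, at -1.22 in the pair labelled male and 3.27 in the pair labelled female, where WT was not well above background.

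The receptor gene Ppara itself was lower on every array but missed the threshold. Its log2 ratios were -1.12 and -1.10 on the arrays of the pair labelled male and -0.43 and -0.61 on those of the pair labelled female. The mean was -0.82 ± 0.20 (moderated SE, n = 2 pairs, as for all errors below; adjusted p = 0.0704). Acsl1, the main long-chain acyl-CoA synthetase of liver, which activates fatty acids, had -1.94 and -1.79 in the first pair and -0.41 and -0.62 in the second. Its mean of -1.19 ± 0.36 was among the lowest of the 40, but the pairs lay far apart and the adjusted p was 0.101. The other 2 kept Acsl1 probes showed the same separation of the pairs. Fabp1, the liver fatty acid binding protein, had -0.12 and -0.83 in the first pair and -0.04 and -0.69 in the second, and in each pair the lower value came from the array with HepKO in Cy3. Its mean was -0.42 ± 0.14 (adjusted p = 0.125).

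None of the 4 carnitine shuttle genes passed limma's test (1 had an unadjusted p under 0.05), and their median of -0.14 was nearest to that of all genes among the mitochondrial steps. Cpt1a makes acylcarnitines at the outer membrane and is the regulated entry step. Its brighter probe gave -0.09, -0.23, 0.10 and -0.23 over the 4 arrays, with a mean of -0.11 ± 0.14 (adjusted p = 0.607), while its dimmer probe was below 0 on all 4, with a mean of -0.49 ± 0.14. Cpt2, which returns the acyl group to CoA in the matrix, had a mean of -0.17 ± 0.15. Slc25a20, the carnitine-acylcarnitine carrier of the inner membrane, was lower on every array, at -1.03 and -0.85 in the pair labelled male and -0.56 and -0.23 in the pair labelled female (mean -0.67 ± 0.19, adjusted p = 0.0936). Crat, which exchanges acetyl groups with carnitine, had 0.33 and 0.49 in the first pair and -0.05 and -0.02 in the second.

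All 10 genes of the mitochondrial spiral and its isomer handling had means below 0, beside 4877 of the 11505 over all genes. Of the 10, 9 were below 0 on all 4 arrays, beside 25% of all genes. The test called 1 of them lower (10%), beside 3.71% of all genes. That gene was Hadh, the dehydrogenase acting on short- and medium-chain 3-hydroxyacyl-CoA. Its ratios were -1.27 and -0.77 in the pair labelled male and -0.91 and -0.38 in the pair labelled female, and the 4 arrays do not reach 0. It fell by 0.84 ± 0.17 on the log2 scale, 1.79-fold (adjusted p = 0.0479), and it kept its call in 7 of 15 alternative settings. The acyl-CoA dehydrogenases, which start each round and divide the work by chain length, were all below 0 on every array: Acadl with a mean of -0.67 ± 0.17 (adjusted p = 0.0764), Acads with -0.57 ± 0.15 (0.0777), Acadm with -0.42 ± 0.17 (0.170) and Acadvl with -0.31 ± 0.14 (0.209). Acadvl varied least over the arrays, from -0.41 to -0.24, and Acadl ranged from -0.99 to -0.37.

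Hadha and Hadhb encode the subunits of the trifunctional protein, which carries out the later steps for long chains, and are adjacent genes. Hadha had -0.82, -0.09, -0.36 and -0.03 over the 4 arrays, with the lower value of each pair on the array with HepKO in Cy5. Hadhb had -0.72, -0.61, -0.33 and -0.28. Their means, -0.33 ± 0.15 and -0.48 ± 0.17, did not pass the test. Acaa2, the mitochondrial thiolase, had a mean of -0.31 ± 0.16 with 1 array at 0.03. Eci1 and Decr1 prepare unsaturated chains for the spiral by isomerisation and reduction. Eci1 had a mean of -0.35 ± 0.14, and Decr1 had -1.06 and -1.23 in the pair labelled male and -0.40 and -0.65 in the pair labelled female (mean -0.84 ± 0.21, adjusted p = 0.0708). As large a mean as that of Hadh therefore missed the threshold where the pairs lay farther apart.

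The electron transfer genes carry electrons from the acyl-CoA dehydrogenases to ubiquinone. Etfdh, the membrane-bound oxidoreductase, had -0.91 and -1.21 in the first pair and -0.42 and -0.73 in the second (mean -0.82 ± 0.19, adjusted p = 0.0594). The genes for the soluble flavoprotein's subunits differed in value. Etfa was below 0 on all 4 arrays with a mean of -0.53 ± 0.17, and Etfb lay between -0.30 and 0.15 with a mean of -0.04 ± 0.16. Over the 17 genes of the shuttle, the spiral and electron transfer together, 16 means were below 0, beside 4877 of the 11505 over all genes. The median of the 17 was -0.42.

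Of the 11 peroxisomal genes 3 fell (27.3%) and none rose, beside 3.71% and 12% of all genes, and the median was -0.30. That median is the value of Acaa1a's brightest probe, and it was -0.56 with the mean of a gene's probes and -0.45 without the array of the male-labelled pair with HepKO in Cy5. Abcd3 encodes PMP70, a membrane transporter that brings acyl-CoA esters into peroxisomes. It had -1.39 and -1.50 in the pair labelled male and -0.72 and -0.83 in the pair labelled female, so that the pairs did not overlap. It fell by 1.11 ± 0.22 on the log2 scale, 2.16-fold (adjusted p = 0.0450), and its other 2 probes had means of -1.37 and -1.31. Acaa1b, a peroxisomal thiolase that cleaves the shortened chain, had -1.07, -1.41, -1.14 and -1.32 over the 4 arrays, a narrow band in both pairs. It fell by 1.23 ± 0.14, 2.35-fold (adjusted p = 0.0190). Eci2, an isomerase of unsaturated chains, had -0.75, -1.07, -0.75 and -0.91, and fell by 0.87 ± 0.14, 1.83-fold (adjusted p = 0.0325). Decr2, the peroxisomal dienoyl-CoA reductase, lay just outside the threshold, with -0.80, -0.79, -0.69 and -0.55 and a mean of -0.71 ± 0.15 (adjusted p = 0.0514).

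Acaa1a, the paralogue of Acaa1b, gave different answers by probe. The brightest probe, A_51_P327075, which stands for the gene here, had 0.16, -0.36, -0.32 and -0.67, with a mean of -0.30 ± 0.17 (adjusted p = 0.283). The dimmer probes A_52_P423183 and A_52_P155990 had means of -1.38 ± 0.12 and -0.98 ± 0.13, with limma adjusted p-values over all probes of 0.0227 and 0.0362. Both thiolase genes lie on chromosome 9 with 4 coding genes between them. How far each probe separates their transcripts was not tested. Counting the mean of all its probes, Acaa1a passed the threshold too.

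The multifunctional enzymes of the peroxisome, which carry out hydration and the second dehydrogenation, did not pass the test. Ehhadh had between -0.29 and -0.05 on the 4 arrays (mean -0.15 ± 0.14). Hsd17b4 had 0.75 and -0.88 on the 2 arrays of the pair labelled male, which share the same RNA, and -0.27 and -0.32 in the other pair. That difference of 1.63 between dye orientations stands beside a median absolute difference of 0.25 over the 40 genes in that pair, and the mean of -0.18 ± 0.15 lies within it. Crot, which makes carnitine esters of medium-chain products for export, had a mean of -0.29 ± 0.16, and Cat, the catalase that removes hydrogen peroxide, was below 0 on all 4 arrays, with -0.57, -0.37 and -0.29 on the 3 nearest to 0 and a mean of -0.56 ± 0.18 (adjusted p = 0.114). Pex11a, a factor of peroxisome division, had 0.60 and 0.05 in the first pair and -0.30 and -0.34 in the second.

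Hao2, a peroxisomal oxidase of 2-hydroxy acids, set the pairs apart more than any other of the 40 genes. In the pair labelled male, WT had log2 normalized intensities of 10.7 on both arrays and HepKO had 9.61 and 9.34, giving ratios of -1.12 and -1.32. In the pair labelled female, WT had 6.17 and 6.35, not well above background on either array, and HepKO had 9.76 and 9.30. Hao2 was thus at least 9.62-fold higher in HepKO in that pair, counted from the probe's own WT signal. On both arrays that signal was no lower than the lowest signal well above background. HepKO levels were alike in both pairs and the WT levels differed. The mean of the pairs, 1.02 ± 1.11 (adjusted p = 0.544), describes neither, and the difference between pairs was not tested, since each pair is 1 replicate and the labelled sex, the age and the slide of the pairs cannot be told apart.

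**Figure D2:**
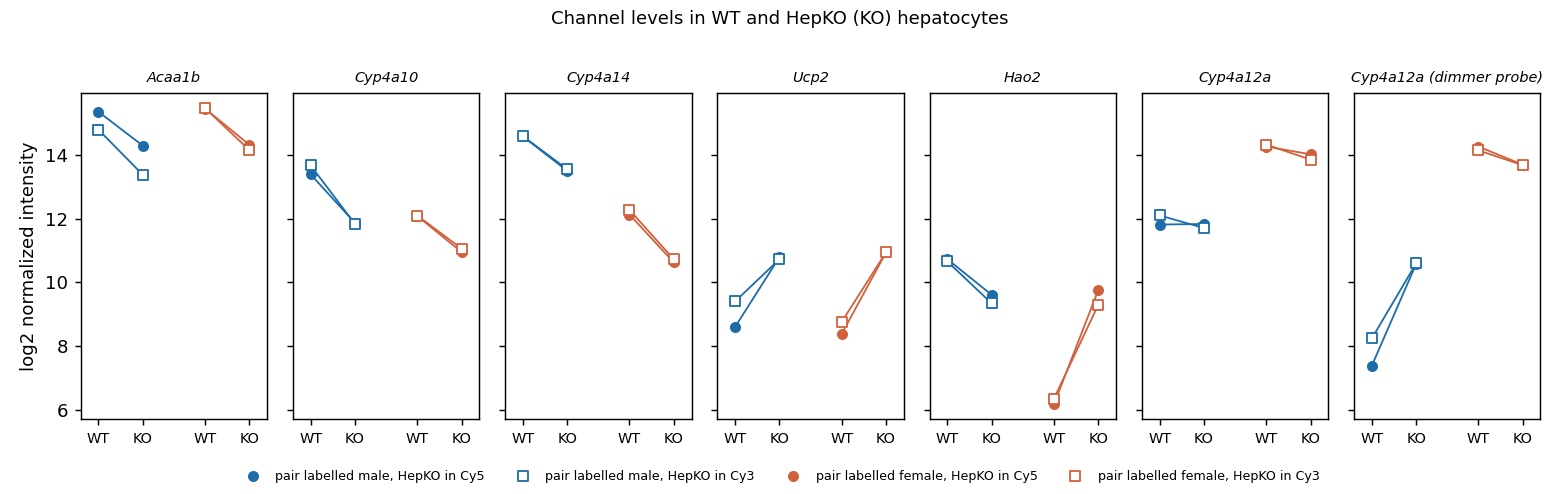
Log2 normalized intensity (vertical axis) in WT and HepKO (KO) for 6 genes, with a second panel for the dimmer Cyp4a12a probe and a line joining the channels of 1 array. Acaa1b, Cyp4a10 and Cyp4a14 slope down and Ucp2 slopes up on all 4 arrays, while Hao2 and the dimmer Cyp4a12a probe slope in opposite directions in the 2 pairs; levels of different probes are not comparable.

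The Cyp4a genes encode the cytochromes P450 that hydroxylate the omega end of fatty acids. Of the 3, 2 fell (66.7%), beside 3.71% of all genes. Cyp4a10 had -1.53 and -1.84 in the pair labelled male and -1.13 and -1.04 in the pair labelled female, and fell by 1.38 ± 0.20, 2.61-fold (adjusted p = 0.0278). Cyp4a14 had -1.08, -1.04, -1.50 and -1.55, and fell by 1.29 ± 0.18, 2.45-fold (adjusted p = 0.0260). The larger decrease was thus in the first pair for Cyp4a10 and in the second for Cyp4a14. The genes are neighbours on chromosome 4 and close paralogues, and cross-hybridisation between their probes was not tested.

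Cyp4a12a, known as a male-biased gene of mouse liver and kidney, did not pass the test, and its probes disagreed. Its brighter probe had 0.02, -0.40, -0.24 and -0.47 (mean -0.27 ± 0.15, adjusted p = 0.256). Its dimmer probe, A_52_P44914, had 3.20 and 2.36 in the pair labelled male and -0.57 and -0.47 in the pair labelled female. With that probe the WT levels were 7.39 and 8.24 in the pair labelled male and 14.3 and 14.1 in the pair labelled female, against 10.6 on both arrays and 13.7 on both arrays in HepKO. The pair labelled female was thus the higher on both probes in both genotypes, on the same side as Ddx3y, Eif2s3y and Kdm5d.

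The thioesterase genes Acot2, Acot1, Acot4 and Acot3 lie next to each other in that order on chromosome 12 and release free fatty acids from CoA esters in the cytosol (Acot1), mitochondria (Acot2) and peroxisomes (Acot3, Acot4). Acot1 had -1.12, -1.02, -0.99 and -0.75, close together in both pairs, and fell by 0.97 ± 0.15, 1.96-fold (adjusted p = 0.0296). Acot2, its neighbour and close paralogue, was above 0 on all 4 arrays, at 0.11, 0.46, 0.03 and 0.28. It did not pass limma's test (mean 0.22 ± 0.14, adjusted p = 0.338). Its probe was dim, with WT levels of 7.06 and 7.32 in the pairs labelled male and female, though well above background on all 4 arrays. Acot3 had -1.71 and -1.22 in the pair labelled male against -0.24 and 0.10 in the pair labelled female, and its mean of -0.77 ± 0.37 had an adjusted p of 0.220. Acot4 had a mean of -0.38 ± 0.18. Cross-hybridisation between these paralogues was not tested.

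Ucp2, which encodes an uncoupling protein of the inner mitochondrial membrane, was the only 1 of the 40 that rose. WT levels were 8.60, 9.40, 8.38 and 8.76 on the 4 arrays and HepKO levels 10.8, 10.7, 10.9 and 10.9, so that the genotypes did not overlap. The log2 ratios were 2.19 and 1.32 in the first pair and 2.56 and 2.18 in the second. The mean was 2.07 ± 0.21, 4.18-fold (adjusted p = 0.0161), and a second probe gave 1.46 ± 0.15. As background, Ucp2 is expressed in macrophages, Kupffer cells included, and the macrophage markers C1qa, C1qb and C1qc rose by 2.00, 1.94 and 1.80 in the same arrays. Their part in the Ucp2 value was not tested.

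Ketone body synthesis was represented among the 40 by Bdh1, which reduces acetoacetate to 3-hydroxybutyrate and had 0.03, -0.21, -0.05 and 0.20 (mean -0.01 ± 0.15, adjusted p = 0.974). Acat1, the thiolase that makes acetoacetyl-CoA, had -1.32, -1.05, -0.71 and -0.44, below 0 on all 4 arrays without passing the test (mean -0.88 ± 0.21, adjusted p = 0.0632). Among genes of ketone body use and transport, the cytosolic dehydrogenase gene Bdh2 fell by 1.22 ± 0.14 (adjusted p = 0.0195) and the carrier gene Slc16a6 rose by 1.34 ± 0.14 (adjusted p = 0.0169). Oxct1, the transferase of ketone body use that healthy hepatocytes largely lack, had 0.71 ± 0.17 (adjusted p = 0.0630), and the monocarboxylate carrier gene Slc16a1 had 0.64 ± 0.26 (adjusted p = 0.166).

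**Figure D3:**
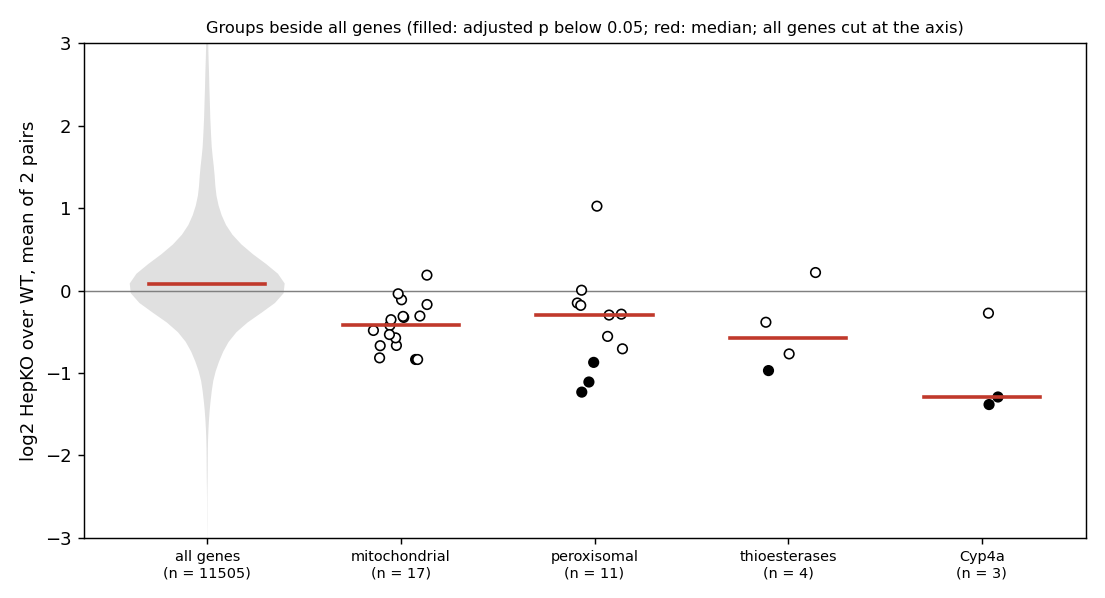
Mean log2 ratio of HepKO over WT (vertical axis) for all 11505 genes (grey shape, cut at the axis limits) and for single genes (circles, filled at an adjusted p below 0.05) of 4 groups, with red bars at the medians. The medians were -0.42 for mitochondrial and -0.30 for peroxisomal genes, beside 0.08 for all genes.

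Of 17 mitochondrial genes 1 fell (5.88%), near the 3.71% of all genes, and of 11 peroxisomal genes 3 fell (27.3%). Each count is small and the difference between the groups was not tested. Their medians by pair were -0.63 and -0.30 for the mitochondrial genes in the pairs labelled male and female, and -0.78 and -0.33 for the peroxisomal genes. The peroxisomal median moved to -0.70 with each array centred on its median in place of loess normalization, a setting in which the mitochondrial median was -0.62 and that of all genes 0.18. The peroxisomal median was also the lower one with the mean of a gene's probes (-0.56 against -0.42), with HepKO in Cy3 only (-0.51 against -0.44), and, by under 0.01, with probes above background on all arrays and with spots flagged for background population left out too. The order of the medians thus has no settled direction.

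Lower values were in most cases more pronounced in the pair labelled male. Of 33 genes below 0 in both pairs, 28 (84.8%) were lower in that pair, beside 75.4% of the 3797 such genes of the whole array. The median of the 40 genes was -0.65 in the pair labelled male and -0.32 in the pair labelled female. Values at least 2-fold lower in HepKO were found for 12 of the 40 genes (30%) in the first pair and 3 (7.5%) in the second, beside 6.13% and 1.91% of all genes. Acaa1b, Cyp4a10 and Cyp4a14 were the genes past 2-fold in the second pair. The SD of log2 ratios over all probes was 0.695 and 0.629 on the arrays of the first pair and 0.518 and 0.480 on those of the second, and the difference between the pairs was not tested.

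Probes of 1 gene gave the same direction in most cases. Of the 40 genes, 11 had more than 1 kept probe. Besides Acaa1a, Cpt1a and Cyp4a12a, the dimmer Crot probe had a lower mean than the brighter one, at -0.65 ± 0.18 against -0.29, and the second Cyp4a10 probe had -1.70 ± 0.25. Another Ucp2 probe, A_52_P499675, passed background on 1 of 4 arrays in the HepKO channel and on none in the WT channel, and was not used.

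**Figure D4:**
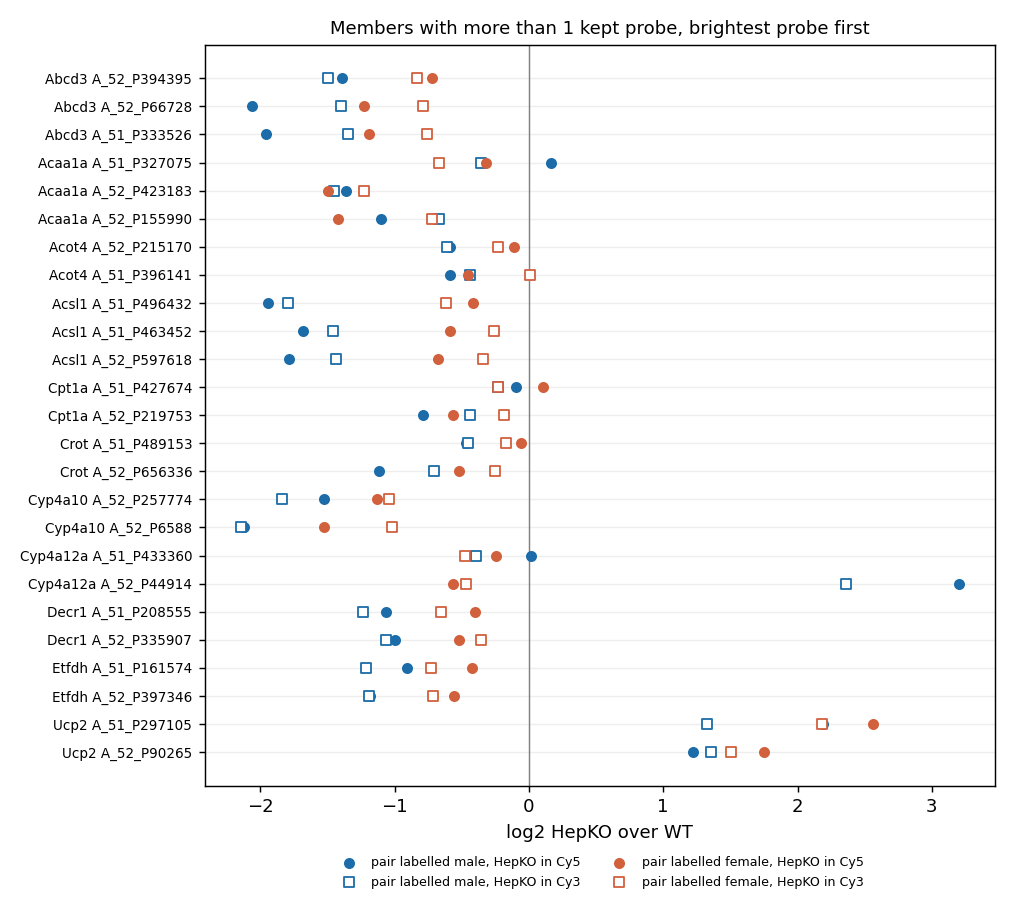
Log2 ratio of HepKO over WT (horizontal axis) on each of the 4 arrays for every kept probe of the 11 genes with more than 1, the brightest probe of each gene first. The probes of Abcd3, Acsl1, Cyp4a10, Decr1 and Etfdh lie on the same side of 0 on all 4 arrays, whereas the dimmer Acaa1a probes lie lower than the brightest and the dimmer Cyp4a12a probe stands at 3.20 and 2.36 in the pair labelled male.

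Promoter sequence was available for 33 of the 40 genes, as 37 windows from 250 bases before to 50 bases after a RefSeq start in GRCm38.p6, and was searched on both strands for the nuclear receptor half-site AGGTCA and for AGGNCANAGGNCA, a pattern of 2 such sites spaced by 1 base as PPARα with RXR binds, which can overlap the half-site. The half-site was in 8 of the 37 windows (21.6%) from 7 genes, beside 16.3% of 32851 windows of all genes. The spaced pattern was in 1 of 37, that of Fabp1, beside 0.381% of all windows. For 6 genes 1 match upstream of the start is shown, so that the letters can be read beside the genes' values, with the match in capitals; both Acot3 matches lie after its start. A match is a stretch of letters and no evidence of binding.
Fabp1, chr6:71199800-71199836, plus strand, spaced pattern on the reverse strand: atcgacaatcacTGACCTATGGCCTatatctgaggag
Cat, chr2:103485340-103485369, minus strand, half-site: tgtgactctcagAGGTCAgagaacaccagc
Acadm, chr3:153944875-153944893, minus strand, half-site on the reverse strand: gTGACCTtcgggctccggt
Acadvl, chr11:70015498-70015527, minus strand, half-site: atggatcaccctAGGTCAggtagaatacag
Acot4, chr12:84038354-84038378, plus strand, half-site on the reverse strand: agccccgaagcaTGACCTttggccg
Cpt1a, chr19:3323195-3323224, plus strand, half-site on the reverse strand: cagtttccttacTGACCTcctccccgcagc

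None of these 6 genes passed the test: the means of Fabp1, Cat, Acadm, Acadvl, Acot4 and Cpt1a ran from -0.56 (Cat) to -0.11 (Cpt1a). Of the 7 genes that fell, 5 were in the promoter table and 0 of these held either pattern in the window, which says only that these letters are not there. The last 100 bases before the start of these 5 genes are shown, since they fell together. Abcd3 has 2 starts in the table, and the first is given.
Acaa1b, chr9:119157094-119157193, minus strand: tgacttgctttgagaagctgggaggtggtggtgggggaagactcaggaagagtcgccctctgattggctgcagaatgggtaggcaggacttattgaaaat
Abcd3, chr3:121815303-121815402, minus strand: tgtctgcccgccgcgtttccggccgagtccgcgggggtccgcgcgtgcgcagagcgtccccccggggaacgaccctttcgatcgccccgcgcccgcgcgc
Eci2, chr13:34994145-34994244, minus strand: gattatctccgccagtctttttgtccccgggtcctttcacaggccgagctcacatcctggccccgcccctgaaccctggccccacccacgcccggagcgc
Acot1, chr12:84009402-84009501, plus strand: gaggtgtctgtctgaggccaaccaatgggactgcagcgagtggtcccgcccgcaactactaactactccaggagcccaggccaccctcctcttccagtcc
Hadh, chr3:131272102-131272201, minus strand: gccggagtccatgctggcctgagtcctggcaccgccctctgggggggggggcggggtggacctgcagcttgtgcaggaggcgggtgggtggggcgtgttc

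Of 94 other genes of these pathways, 89 were measured, with 11 that fell (12.4%, beside 3.71% of all genes), 5 that rose (5.62%, beside 12%) and a median of -0.37. This list, too, was chosen with earlier results of these data known. In the peroxisome, 5 of 21 fell (23.8%) and none rose. Among them, Slc27a2, an acyl-CoA synthetase for very long chains, fell by 1.09, Ephx2, the soluble epoxide hydrolase, by 1.07, Ech1, a dienoyl-CoA isomerase, by 1.03 and Acbd5, an acyl-CoA binding protein of the peroxisomal membrane, by 0.72. Of 15 peroxins, which build the organelle, none passed limma's test (1 had an unadjusted p under 0.05), and their median was -0.30. The difference between enzymes and peroxins was not tested. Without the array of the male-labelled pair with HepKO in Cy3, Bdh2, Acbd5, Acacb and Pparg lost their calls; Acbd5, Acacb and Pparg also lost theirs without the array of the female-labelled pair with HepKO in Cy5, and Acbd5 without that of the male-labelled pair with HepKO in Cy5.

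Of 15 other mitochondrial genes 1 fell and 1 rose (6.67% each), beside 3.71% of all genes that fell and 12% that rose. Acad9, which has a role in complex I assembly beside its dehydrogenase activity, fell by 1.27 ± 0.19 (adjusted p = 0.0283), and Acot9, a mitochondrial thioesterase, rose by 1.32 ± 0.14 (adjusted p = 0.0177). Of 14 other PPARα targets 2 fell, Cyp4a31 by 1.60 ± 0.23 (adjusted p = 0.0260) and the fatty aldehyde dehydrogenase gene Aldh3a2 by 1.12 ± 0.15 (adjusted p = 0.0241), and 2 rose. The latter were Fgf21, a hormone made by liver in fasting and in mitochondrial stress, with 1.78, 1.61, 1.73 and 1.65 (mean 1.69 ± 0.14, adjusted p = 0.0146), and the lipid droplet gene Cidec, with 2.03, 1.88, 1.98 and 1.94 (mean 1.96 ± 0.14, adjusted p = 0.0123). Each count is 14.3% of these targets, beside 12% of all genes that rose and 3.71% that fell, and their median was 0.22. Plin2, which coats lipid droplets, had 2.15 and 1.68 in the pair labelled male and 0.67 and 0.47 in the pair labelled female (mean 1.24 ± 0.36, adjusted p = 0.0935). Pdk4, a kinase that restrains pyruvate oxidation, had a mean of 0.57 ± 0.24, and Angptl4, an inhibitor of lipoprotein lipase, had 0.50 ± 0.31, both with the higher values in the pair labelled male.

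Among 17 other regulators 1 fell and 1 rose (5.88% each), beside 3.71% of all genes that fell and 12% that rose. Acacb, the acetyl-CoA carboxylase whose product inhibits Cpt1a, fell by 0.90 ± 0.17 (adjusted p = 0.0430), and Pparg, the adipogenic relative of Ppara, rose by 0.90 ± 0.19 (adjusted p = 0.0493). The receptor partner gene Rxra had -0.54 ± 0.18 (adjusted p = 0.118), the coactivator gene Ppargc1a had -0.39 ± 0.14 (adjusted p = 0.139) with all 4 arrays between -0.43 and -0.30, and Hnf4a had 0.09 ± 0.19.

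**Figure D5:**
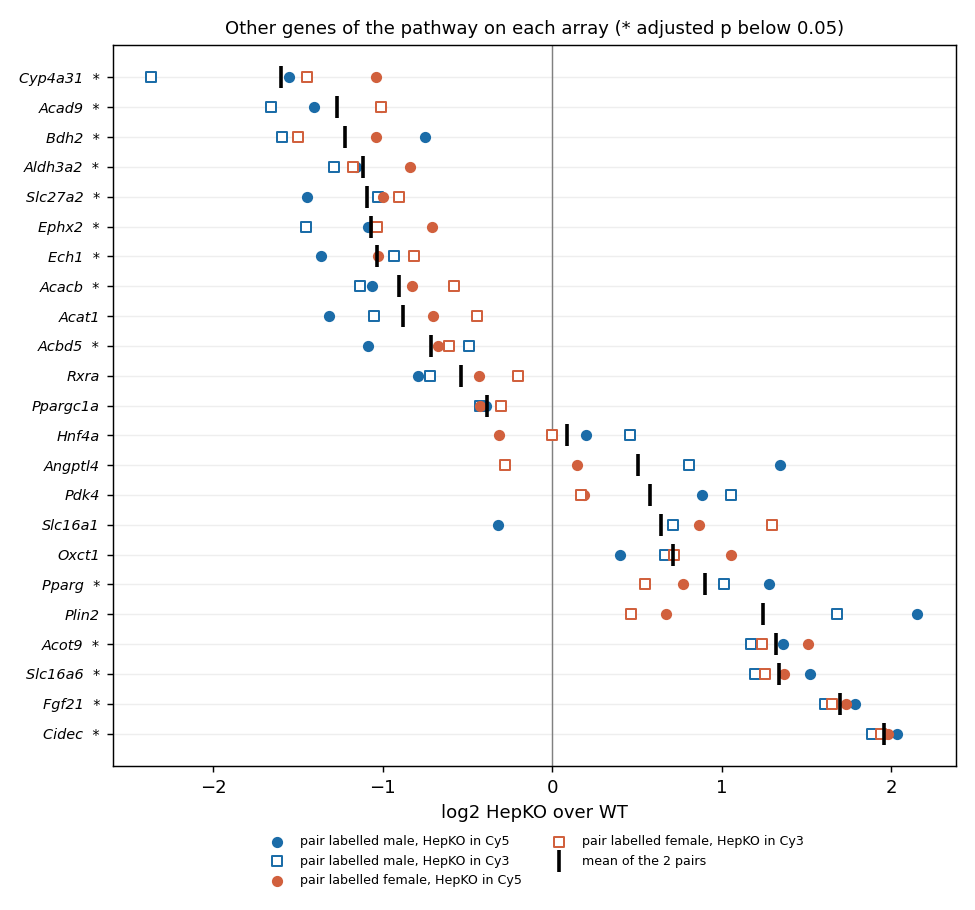
Log2 ratio of HepKO over WT (horizontal axis) on each of the 4 arrays for 23 named genes of the same pathways beyond the 40, ordered by their mean, with a bar at the mean of the 2 pairs and an asterisk at an adjusted p below 0.05. Cyp4a31 (-1.60) and Acad9 (-1.27) lie at the low end and Fgf21 (1.69) and Cidec (1.96) at the high end, each on the same side of 0 on all 4 arrays.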

How the data were processed

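Agilent Feature Extraction 10.2.1.3 read the images, per the file headers. For each channel the deposited intensity columns used give a spot's mean and its local background's median, before any subtraction. A deposited log10 ratio (red over green) carries that program's own background subtraction and dye normalization, per the file headers. The value table deposited by the authors repeats these log10 ratios, turned to HepKO over WT (correlation with the scanner ratio 1 or -1, column medians 0). Both served as alternatives.

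Background was corrected with normexp (offset 50) and loess was run within arrays (limma 3.58.1, R 4.3.3), with weight 0 for the 1639 control spots among 45018. Spots flagged as non-uniform, or as population outliers, were left out before normexp (178 to 260 per array), and no spot was saturated. Log2 ratios were averaged over dye orientations to 1 value per pair. A probe was kept if well above background on both arrays of a pair in 1 genotype (22839 of 41174 probes; between 48.2% and 58.6% were above background by array and channel). Accessions without versions were matched to RefSeq names of assembly GRCm38.p6 (22951 probes, 55.7%). A gene was represented by its brightest kept probe. An intercept was fitted to both pair values with limma (moderated test), and p-values were adjusted by Benjamini-Hochberg over 11505 genes, with a threshold of 0.05. It had 1 residual degree of freedom and 3.11 borrowed ones, so that the number of pairs limits the precision. The smallest adjusted p was 0.0100, and 4179 genes had an unadjusted p under 0.05.

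Named genes were all 40, every other pathway gene past the threshold, the ketone body genes, and Pdk4, Fgf21, Angptl4, Plin2, Ppargc1a, Rxra and Hnf4a. Some genes that the rule names are not reported here. Macrophage and Hpx values illustrate marker lists. The 40 genes and all lists were chosen with earlier results of these data known. The pairs came from separate animals, with 1 animal per genotype in each. Alternatives were both deposited ratio sources, other background, centring, filter, probe and moderation choices, single dye orientations and leaving out each array. The scripts were tested on simulated data.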

Additional observations from a re-analysis of the deposited data

Results flagged for a closer look

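For 4 of the 40 genes (10%), beside 8.45% of all genes, every array of one pair lay on the opposite side of 0 from every array of the other. The difference between pairs was not tested, since each pair is 1 replicate. Hao2 had -1.22 in the pair labelled male and 3.27 in the pair labelled female, a difference of 4.48 (female minus male, log2 HepKO over WT). In the female-labelled pair neither array had WT Hao2 well above background, so that 3.27 and 4.48 are not measured on both sides. The bound of at least 9.62-fold for that pair is the same 3.27, read as a minimum. Pex11a had 0.32 and -0.32, a difference of -0.64. Crat had 0.41 and -0.034, a difference of -0.44, and Etfb had -0.17 and 0.094, a difference of 0.27. Between the arrays of the male-labelled pair, which share the same RNA, values differed by 0.55 for Pex11a, -0.17 for Crat and 0.25 for Etfb (HepKO in Cy5 minus HepKO in Cy3). In the female-labelled pair these differences were 0.037, -0.035 and 0.11.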

How the results depend on the processing

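Of the 8 calls among the 40 genes, Acaa1b, Acot1, Cyp4a10, Cyp4a14 and Ucp2 held in 13 of 15 settings, Abcd3 in 9 of 15, Eci2 in 9 of 14 and Hadh in 7 of 15. With the background model estimated on all spots, or with no filter on dim probes, limma called 0 genes in every list and 0 of all genes higher or lower. In the first of these the SD of ratios on female pair array 2 was 0.267 in place of 0.480, where green background reached 41157 against a median of 29. Genes that fell numbered 7 of the 40 as reported, 4 with the Feature Extraction ratios, 4 with the value table and 12 with HepKO in Cy3 only, where 682 of all genes fell in place of 427. With HepKO in Cy3 only 8 other pathway genes rose in place of 5, and with trended, robust moderation 12 rose, 17 fell in place of 11, and 2796 of all genes rose in place of 1378. Leaving out 1 array gave 4 to 9 of the 40 lower, 4 to 8 other pathway genes higher and 207 to 577 of all genes lower. Array 1 of a pair has HepKO in Cy5 and array 2 in Cy3, and the lowest counts of lower genes came without male pair array 2. The peroxisomal median moved from -0.30 to -0.70 with median centring, -0.56 with the mean of a gene's probes, -0.51 with HepKO in Cy3 only and -0.45 without male pair array 1.

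Signs turned only for genes past no threshold. Pex11a was -0.058 with the Feature Extraction ratios and with the value table, -0.0033 with all spots, -0.011 with median centring, -0.14 with HepKO in Cy3 only, and -0.13 and -0.0051 without male pair array 1 and female pair array 1. Bdh1 was 0.018 with either deposited ratio, 0.051 without male pair array 2 and 0.055 without female pair array 1. With HepKO in Cy5 only Cpt1a was 0.0041, Etfb 0.053, Hsd17b4 0.24 and Hnf4a -0.056. Without male pair array 2 Etfb was 0.024 and Hsd17b4 0.23. Cyp4a12a was 0.43 as the mean of its probes. Over the settings that leave out 1 array, Etfb ran from -0.10 to 0.024, Hsd17b4 from -0.59 to 0.23, Pex11a from -0.13 to 0.14 and Bdh1 from -0.072 to 0.055. The causes were not tested. The setting that also leaves out spots flagged for background population, chosen after seeing the data, called 5 of the 40 lower. No paired analysis was possible beyond the ratio, because each ratio is already taken within a pair.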
